A study of Mus musculus with 3 samples.

Results

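Granule-rich neutrophils of the mouse infrarenal aorta are neutrophils that carry the transcripts of Camp, Ltf and Ngp, which encode proteins stored in the specific granules. They were chosen from measured values. A barcode, the tag of 1 droplet, counted as a member if it held at least 200 detected genes, at most 10% of its UMIs (unique molecular identifiers, the RNA molecules counted) from mitochondrial genes, at least 100 UMIs of S100a8 and S100a9 together per 10000, at least 10 UMIs of Camp, Ltf and Ngp together per 10000, and no UMI of Cd79a, Cd3e, C1qa or Ms4a3, which mark B cells, T cells, macrophages and early granulocyte precursors. This left 223 cells of 17389 barcodes, of which 9750 passed the limits on genes and mitochondrial UMIs. The members were 152 cells of AAA_14, 25 cells of AAA_7 and 46 cells of Sham.

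The study profiled CD45-positive immune cells from the infrarenal aorta of wild-type mice, the stretch of vessel between the renal arteries and the leg arteries, with and without abdominal aortic aneurysm (AAA). AAA_14 aortas carried an elastase treatment label, elastase being a protease that breaks down elastin in arteries. AAA_7 is titled as an aneurysm but its treatment label names PBS (phosphate-buffered saline), so what this library received is in doubt. Sham aortas carried the PBS label. Strain, age and the unit of the numbers 7 and 14 are not stated in the labels, aortas were perfused and mixed within a group (20 AAA and 50 control aortas, with no number for AAA_7 alone), and every cell passed an enzymatic digestion and a magnetic selection with CD45 and viability beads. Each group was 1 library. No difference between groups could therefore be tested, and every interval below covers counting error only, not the variation between animals or libraries.

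Neutrophils fill their granules in order while they mature in the bone marrow. Azurophil (primary) granules form first at the promyelocyte stage, specific (secondary) granules with lactoferrin, cathelicidin and neutrophilic granule protein at the myelocyte stage, gelatinase (tertiary) granules later, and secretory vesicles last. Most transcripts of granule proteins fade before the cell leaves the marrow, so a neutrophil that still holds much Camp, Ltf and Ngp RNA is usually read as younger than one that holds none, and the transcription factor C/EBP epsilon, encoded by Cebpe, is required for the specific granule genes. In elastase-injured arteries neutrophils are known as a source of proteases and of interleukin 1.

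The libraries differed in quality. The mitochondrial limit removed 47.2% of the barcodes of AAA_14, 7.52% of those of AAA_7 and 66.9% of those of Sham. Granule-rich cells had a median of 7845 UMIs and 1584 genes in AAA_14, 4164 UMIs and 964 genes in AAA_7, and 5070.5 UMIs and 1187 genes in Sham. Their median mitochondrial share was 2.91% in AAA_14, 0.478% in AAA_7 and 1.11% in Sham. Summed over cells, the profiles held 1322668 UMIs in AAA_14, 122832 UMIs in AAA_7 and 251196 UMIs in Sham, so AAA_7 is the thinnest of the profiles. Between libraries, 12, 10 and 5 barcodes were shared (AAA_14 with AAA_7, AAA_14 with Sham, AAA_7 with Sham), and 0 of them were granule-rich cells in both.

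The label was checked against 5 markers, of which the rule used Camp, Ltf and Ngp and did not use Ly6g, a surface antigen of mouse neutrophils, and Mmp8, the neutrophil collagenase. Ly6g was detected in 90.8% of granule-rich cells of AAA_14, 48% of those of AAA_7 and 84.8% of those of Sham, while in B cells, which lack it and here show the level of free RNA, it was detected in 0.523% of cells of AAA_14, 0% of AAA_7 and 0% of Sham. After thinning every cell to 1000 UMIs the shares with Ly6g were 49% in AAA_14, 21.7% in AAA_7 and 58.7% in Sham. Mmp8 was detected in 87.5% of the cells of AAA_14, 76% of those of AAA_7 and 82.6% of those of Sham. S100a8 and S100a9, which encode the calprotectin subunits and were part of the rule, made up a median of 36.2% of all UMIs of a cell in AAA_14, 33.1% in AAA_7 and 37.9% in Sham. Of the markers the rule did not use, both were thus found in most cells of AAA_14 and Sham, and Ly6g was lower in AAA_7.

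How common the cells were differed between libraries. Granule-rich cells were 2.88% of kept cells in AAA_14 (exact Clopper-Pearson 95% interval 2.44 to 3.36), 0.774% in AAA_7 (0.502 to 1.14) and 3.72% in Sham (2.74 to 4.94). All neutrophils by the same rule without the granule criterion were 541 cells of AAA_14, 530 cells of AAA_7 and 91 cells of Sham. Of these neutrophils, 28.1% were granule-rich in AAA_14 (24.3 to 32.1), 4.72% in AAA_7 (3.08 to 6.88) and 50.5% in Sham (39.9 to 61.2). At the mitochondrial limit of 10% the 3 intervals for the share of neutrophils do not overlap. Within neutrophils the order was therefore Sham, AAA_14, AAA_7, while neutrophils as a whole ran the other way, at 10.2% of kept cells in AAA_14, 16.4% in AAA_7 and 7.37% in Sham. The share of kept cells moves with the mitochondrial limit, which removed unequal shares of the barcodes, and at a limit of 5% it was 8.28% in AAA_14 and 30.9% in Sham. The share of neutrophils moves too, and at 5% that of AAA_14 lay inside the Sham interval given above. That interval was taken at the limit of 10%, and the Sham share of neutrophils at 5% is not given here. The distance between AAA_14 and Sham thus depends on this limit.

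The summed level of Camp, Ltf and Ngp spread over 2 orders of magnitude inside each library. Per 10000 UMIs it had a median of 328 in AAA_14 (quartiles 63.9 and 851, range 10.2 to 1515), 33.5 in AAA_7 (quartiles 18.5 and 209, range 10.2 to 1365) and 557 in Sham (quartiles 96.0 and 841, range 10.1 to 1204). A level of at least 100 was reached by 106 cells of AAA_14 (69.7%, interval 61.8 to 76.9), 11 cells of AAA_7 (44%, 24.4 to 65.1) and 34 cells of Sham (73.9%, 58.9 to 85.7), and a level of at least 500 by 65 cells of AAA_14, 3 of AAA_7 and 24 of Sham. AAA_7 thus held few cells at the high end, and the cells near the threshold weigh more there. Its 14 cells between 10 and 100 had a median of 2419 UMIs and held 4 UMIs of Camp in all. In the same range the 46 cells of AAA_14 held 160 Camp UMIs and the 12 cells of Sham held 61. Membership in AAA_7 can thus rest on few UMIs, and the part of free RNA in it was not tested. Just inside the threshold, between 10 and 20 per 10000, stood 16 cells of AAA_14, 8 of AAA_7 and 2 of Sham. Just outside it, between 5 and 10, stood a further 34 neutrophils of AAA_14, 25 of AAA_7 and 4 of Sham, while 264 neutrophils of AAA_14, 462 of AAA_7 and 39 of Sham had no UMI of the 3 genes. Requiring 0 UMIs of the 4 excluded genes left out 100 otherwise eligible cells of AAA_14, 10 of AAA_7 and 11 of Sham, and 46 of these in AAA_14, 5 in AAA_7 and 6 in Sham held only single UMIs of them.

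**Figure D1:**
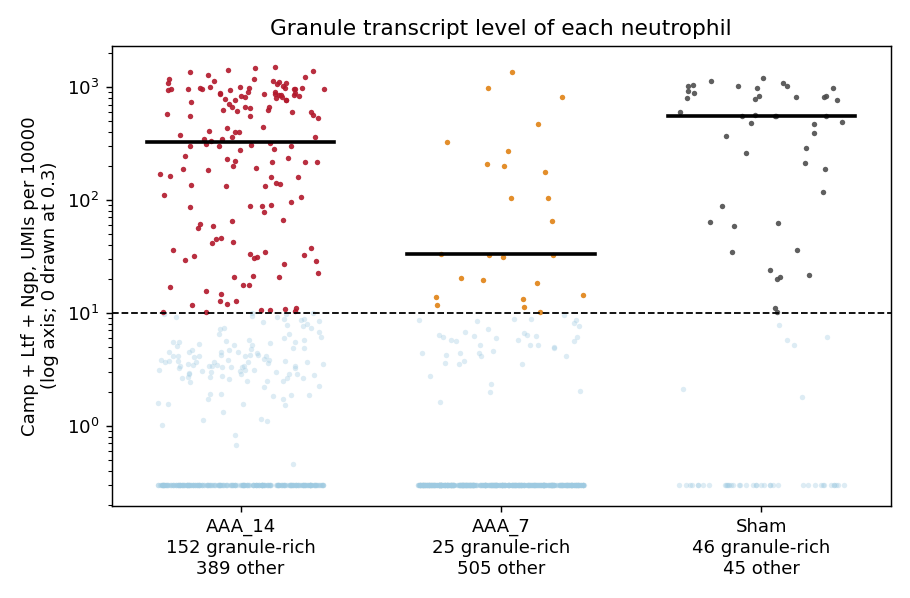
Summed level of Camp, Ltf and Ngp (UMIs per 10000, log axis, 0 drawn at 0.3) in each neutrophil of AAA_14, AAA_7 and Sham, 1 point per cell, with the threshold of 10 as a dashed line and other neutrophils in pale blue. Granule-rich cells lie above the line, with medians (bars) of 328 in AAA_14, 33.5 in AAA_7 and 557 in Sham.

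The specific granule genes differed little between AAA_14 and Sham, and some were lower in AAA_7, among them genes that chose the cells. Values are CPM, counts per 1000000 UMIs summed over the granule-rich cells of a library. Camp, the cathelicidin precursor, stood at 21802 CPM in AAA_14, 14296 CPM in AAA_7 and 33727 CPM in Sham. Ltf, lactoferrin, an iron-binding protein, stood at 8750 CPM in AAA_14, 4811 CPM in AAA_7 and 6342 CPM in Sham. Ngp, neutrophilic granule protein of the cystatin fold, stood at 24160 CPM in AAA_14, 17178 CPM in AAA_7 and 18400 CPM in Sham. For all 3 genes AAA_7 was the lowest library, and because they chose the cells these levels are a description. Of the Camp UMIs of AAA_7, 32.7% came from 1 cell.

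Of the specific granule genes the rule did not use, Lcn2, which binds bacterial siderophores, stood at 12885 CPM in AAA_14, 6944 CPM in AAA_7 and 12365 CPM in Sham. Mmp8 stood at 2238 CPM in AAA_14, 1327 CPM in AAA_7 and 2922 CPM in Sham. Chil3, a chitinase-like protein, was nearly level at 2388 CPM in AAA_14, 2312 CPM in AAA_7 and 2699 CPM in Sham. In AAA_14 over Sham, 1 of 24 measured specific granule genes was at least 2-fold higher and 0 were at least 2-fold lower (median log2 ratio 0.04). Over all 6241 genes tested there, 14.5% were at least 2-fold higher and 7.88% at least 2-fold lower, with a median of 0.07. The gene that was higher was Olfm4, olfactomedin 4, a specific granule protein found in a subset of neutrophils, at 134 CPM in AAA_14 (177 UMIs), 0 CPM in AAA_7 (0 UMIs) and 23.9 CPM in Sham (6 UMIs), a log2 ratio of 2.37 (1.34 to 3.95) of AAA_14 over Sham that was -0.13 when cells with a UMI of any of 12 marker genes of other cell types were left out, the 4 genes of the rule among them. In AAA_7 over Sham 1 of 23 was at least 2-fold higher and 4 at least 2-fold lower, with a median of -0.24, where 22.4% and 10.9% of 3025 genes were and the median of all genes was 0.26. The 4 lower genes were Camp (-1.24), Mmp8 (-1.14), Lyz2, lysozyme (-1.26), and Ceacam10 (-1.04), the last of which stood at 0.05 in cells without a UMI of the 12 marker genes.

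Camp, Ngp and Ltf lie on mouse chromosome 9 within 1195389 bases (GRCm38), Camp at chr9:109847379-109849617 on the minus strand, Ngp at chr9:110419747-110423012 and Ltf at chr9:111019271-111042767, both on the plus strand. Mmp8 is on chromosome 9 as well, at chr9:7558456-7568485, so 4 of the 25 specific granule genes on the list are on that chromosome. The promoters of Ltf and Ngp are shown because both genes define the cells, and their windows hold the core of the element bound by C/EBP factors, TTNNGCAA, searched on both strands. The sequences are from RefSeq for GRCm38.p6, plus strand, 5' to 3', and end just before the first annotated transcript start (GENCODE vM21). Capitals mark the motif. The Ltf window is chr9:111019042-111019270 and the Ngp window chr9:110419558-110419746.
Ltf: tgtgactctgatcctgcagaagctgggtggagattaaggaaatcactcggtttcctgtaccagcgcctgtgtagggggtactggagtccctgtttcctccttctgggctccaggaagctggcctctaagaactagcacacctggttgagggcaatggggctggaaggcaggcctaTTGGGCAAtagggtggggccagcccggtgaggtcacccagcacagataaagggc
Ngp: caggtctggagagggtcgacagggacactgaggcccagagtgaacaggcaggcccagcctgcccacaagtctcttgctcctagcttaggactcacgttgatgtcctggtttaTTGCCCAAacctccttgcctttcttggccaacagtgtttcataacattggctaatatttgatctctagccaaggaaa
Counted from the first base after the printed window, the match begins 54 bases upstream in Ltf and 77 bases upstream in Ngp. The motif occurs in 9.02% of all promoter windows of the length used for Ltf and in 7.76% of those of the length used for Ngp. Over windows of 250 bases before to 50 bases after the start, 5 of 21 specific granule genes with a sequence held it (23.8%), against 12.2% of 27025 genes. The core of the PU.1 element, GAGGAA, was in 15 of the 21 (71.4%), against 31.3% of all genes. The windows of Camp and Chil3 held neither of these motifs. A match is a description of letters and not of binding.

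Set against the other neutrophils of the same library, the granule-rich cells were higher in most specific granule genes beyond those that chose them. The rule used this contrast, so the values are a description without a test. At least 2-fold higher were 18 of 24 specific granule genes in AAA_14 (median log2 ratio 1.98), 16 of 23 in AAA_7 (2.26) and 16 of 23 in Sham (1.86), where 8.57% of all genes were in AAA_14, 14.8% in AAA_7 and 14.3% in Sham. Without Camp, Ltf and Ngp the counts were 15 of 21 in AAA_14 (median 1.82), 13 of 20 in AAA_7 (2.01) and 13 of 20 in Sham (1.61). Chil3 stood at 2388 CPM in granule-rich cells and 12.5 CPM in other neutrophils of AAA_14, at 2312 and 258 CPM in AAA_7, and at 2699 and 27.6 CPM in Sham. Cybb, the catalytic subunit of the NADPH oxidase, stood at 1613 CPM in granule-rich cells and 133 CPM in other neutrophils of AAA_14, at 1278 and 350 CPM in AAA_7, and at 1931 and 120 CPM in Sham. Cebpe stood at 213 CPM in granule-rich cells and 8.30 CPM in other neutrophils of AAA_14, at 195 and 9.31 CPM in AAA_7, and at 131 and 18.4 CPM in Sham. These 3 genes were higher in granule-rich cells of every library.

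By the median log2 ratio over the libraries, the leading genes after Chil3 (6.39) were Itgb2l, an integrin beta chain (4.72), Serpinb1a, an inhibitor of neutrophil serine proteases (4.56), Cebpe (4.34), Adpgk, an ADP-dependent glucokinase (4.15), Cd177, a neutrophil surface glycoprotein (3.92), and Lta4h, leukotriene A4 hydrolase (3.61). Cybb (3.60), Golim4 (3.35), Mgst2 (3.05), Lcn2 (2.99), Ifitm6 (2.88), Syne1 (2.84), and the annexins Anxa1 (2.77) and Anxa3 (2.61) followed. Several of them differed in size between libraries, as Chil3 did with 7.54 in AAA_14, 3.17 in AAA_7 and 6.39 in Sham.

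Genes of mature and of activated neutrophils ran the other way. Of the maturity and egress genes, 13 of 16 were at least 2-fold lower in granule-rich cells of AAA_14, 7 of 16 in AAA_7 and 11 of 15 in Sham, where 24.5% of all genes were in AAA_14, 27.9% in AAA_7 and 28.1% in Sham. Csf3r, the receptor of granulocyte colony-stimulating factor, stood at 329 CPM in granule-rich cells and 2177 CPM in other neutrophils of AAA_14, at 252 and 1030 CPM in AAA_7, and at 203 and 1646 CPM in Sham. Il1b, interleukin 1 beta, stood at 697 CPM in granule-rich cells and 11263 CPM in other neutrophils of AAA_14, at 1164 and 15724 CPM in AAA_7, and at 613 and 9342 CPM in Sham. Of the activation list, 17 of 19 genes were at least 2-fold lower in granule-rich cells of AAA_14 (median -3.43), 18 of 19 in AAA_7 (-3.23) and 14 of 16 in Sham (-3.72). Retnlg, a resistin-like protein of neutrophils, did not keep to this pattern, at 20340 CPM in granule-rich cells and 12832 CPM in other neutrophils of AAA_14, 25344 and 1734 CPM in AAA_7, and 23850 and 22536 CPM in Sham.

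The cells were also set beside granulocyte precursors. In granule-rich cells Elane, neutrophil elastase, had 0 UMIs in the AAA_14 library, 5 in AAA_7 and none in Sham. Mpo, myeloperoxidase, had 3 UMIs in AAA_14 and none in AAA_7 and Sham, and Prtn3, proteinase 3, had 15 in AAA_14, 4 in AAA_7 and none in Sham. In the 21 precursor cells of AAA_14 Elane stood at 1701 CPM, Prtn3 at 2313 CPM and Mpo at 825 CPM. These cells were chosen by UMIs of Ms4a3 and of Elane or Prtn3. Elane and Prtn3 are therefore present there by construction, and the contrast is a description. Elane, Mpo and Prtn3 thus had few or no UMIs in granule-rich cells, while Ms4a3 was 0 by the rule. The 5 UMIs of Elane in AAA_7 still lie above a floor of 3 counts, which is 24.4 CPM in that library. The azurophil granule list as a whole was not near 0. Granule-rich cells of AAA_14 held 2485 UMIs of its genes, those of AAA_7 held 393 and those of Sham held 421.

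**Figure D2:**
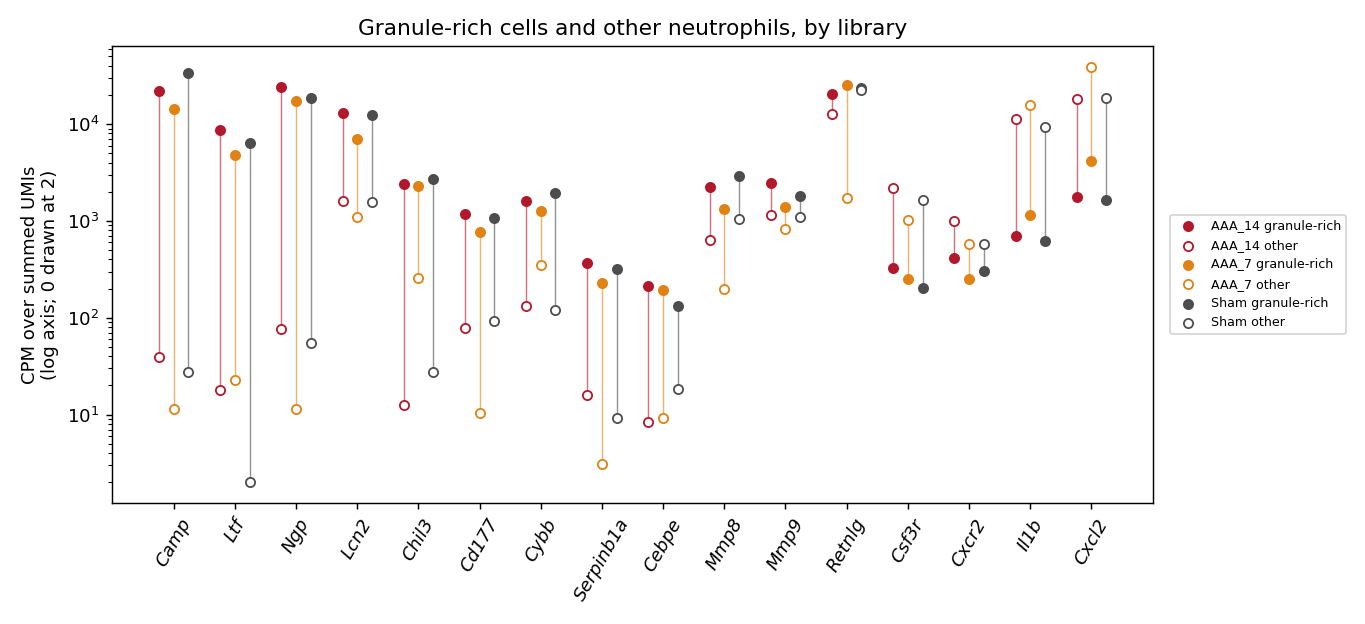
CPM (log axis, 0 drawn at 2) of marker, granule, maturity and activation genes in granule-rich cells (filled) and other neutrophils (open) of AAA_14, AAA_7 and Sham, 1 point per library and class. Camp, Ltf and Ngp are high in granule-rich cells by construction, and Il1b is lower there in each library.

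Within the granule-rich cells the level of the 3 genes ordered other genes too. Cells at 100 or more per 10000 were set against cells between 10 and 100, which are ranges of 1 level and not types. Their median UMI counts were 8431 and 5922.5 in AAA_14, 7353 and 2419 in AAA_7, and 5692.5 and 4136.5 in Sham. Chil3 was higher in the upper range by a log2 ratio of 5.58 in AAA_14, 3.45 in AAA_7 and 5.70 in Sham. Serpinb1a was higher by 2.22 in AAA_14, 2.53 in AAA_7 and 2.21 in Sham, and Cybb by 2.08 in AAA_14, 1.18 in AAA_7 and 2.11 in Sham. Cebpe was higher by 2.95 in AAA_14, 0.34 in AAA_7 and 0.82 in Sham. The 2 matrix metalloproteinases did not rise with the level, and their ratios were small and negative. Mmp8 differed by -0.31 in AAA_14, -0.22 in AAA_7 and -0.39 in Sham. Mmp9, the gelatinase of tertiary granules, differed by -0.26 in AAA_14, -0.37 in AAA_7 and -0.20 in Sham. Lower in the upper range were Retnlg (-1.39, -1.31 and -2.39), Csf3r (-1.64, -1.15 and -1.39) and Cxcr2, a chemokine receptor of circulating neutrophils (-1.32, -1.71 and -1.41), each in the order AAA_14, AAA_7 and Sham.

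Across the cells of 1 library, which share its preparation but differ in depth, Camp per 10000 UMIs had a Spearman correlation with Ngp of 0.93 in AAA_14 (152 cells), 0.91 in AAA_7 (25 cells) and 0.79 in Sham (46 cells), and with Ltf of 0.87 in AAA_14, 0.81 in AAA_7 and 0.64 in Sham. With Cxcr2 it was -0.68 in AAA_14, 0.04 in AAA_7 and -0.73 in Sham. With Mmp8, a marker of the label, it was -0.39 in AAA_14, -0.14 in AAA_7 and -0.54 in Sham, so Mmp8 ran against Camp across cells. The total UMIs of a cell had a correlation with Camp of 0.43 in AAA_14, 0.75 in AAA_7 and 0.20 in Sham, so depth moves with the level, most in AAA_7.

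**Figure D3:**
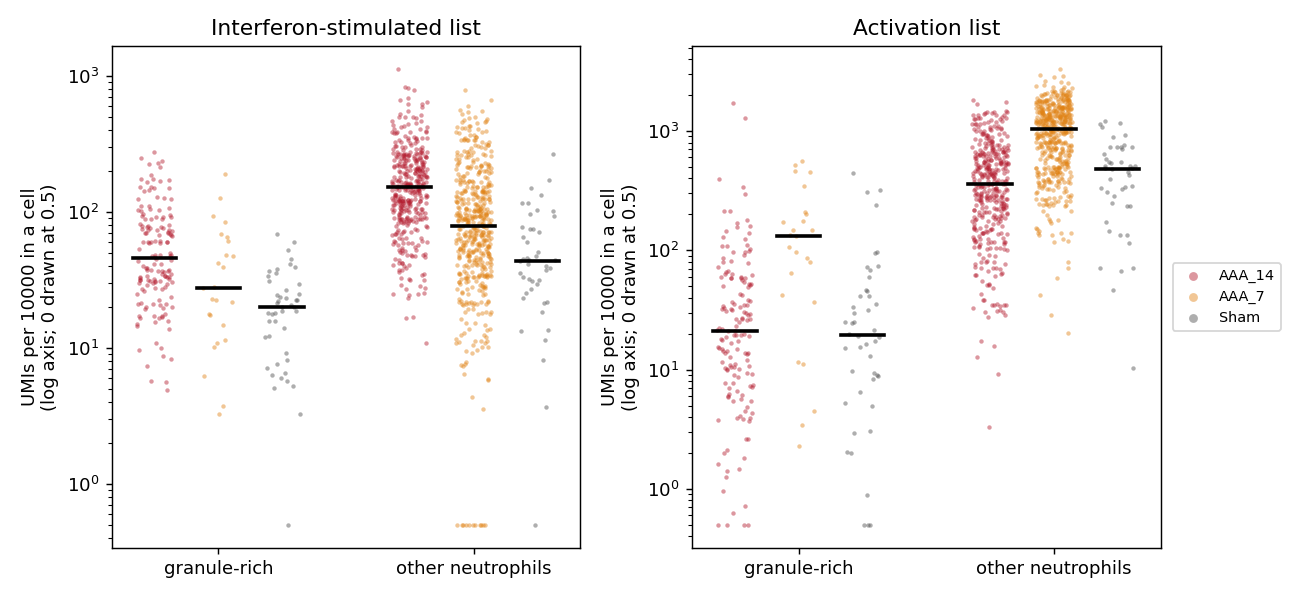
Per-cell summed levels of the interferon-stimulated and activation lists (UMIs per 10000, log axis, 0 drawn at 0.5) in granule-rich cells and other neutrophils of AAA_14, AAA_7 and Sham, 1 point per cell with the median as a line. In granule-rich cells the medians of AAA_14, AAA_7 and Sham are 45.6, 27.7 and 19.9 for the interferon-stimulated list and 21.1, 132 and 19.5 for the activation list, and other neutrophils lie higher in both.

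Among the lists of genes that neutrophils themselves use, interferon-stimulated genes had the highest median of AAA_14 over Sham. They are a set induced by type I interferons. In granule-rich cells 21 of 24 measured members were higher by 2-fold or more in AAA_14 and 0 were lower by as much, with a median log2 ratio of 2.28, where 14.5% of all genes were higher and 7.88% lower. In Sham 7 of them had 0 UMIs, and in cells without a UMI of 12 marker genes of other cells (43 of AAA_14, 12 of AAA_7 and 22 of Sham) the median was 2.43. With those genes set at the bound that a floor of 3 counts gives, 19 of 24 were at least 2-fold higher and the median was 1.96. In AAA_7 over Sham 5 of 11 measured members stood at least 2-fold higher and 1 at least 2-fold lower (median -0.16, and from -0.52 to 1.54 over 19 other settings of the processing), where 22.4% and 10.9% of all genes were. With 5 counts added to each sum in place of 0.5, the median of AAA_14 over Sham was 1.09. In AAA_14 over AAA_7 11 of 24 were at least 2-fold higher and 2 at least 2-fold lower (median 0.97, or 8 higher and 0.93 at the bound), where 15% and 19.2% of 6113 genes were and the median of all genes was -0.22.

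Ifit1, which binds viral RNA that lacks the host cap, stood at 141 CPM in AAA_14 (187 UMIs), 16.3 CPM in AAA_7 (2 UMIs) and 0 CPM in Sham (0 UMIs), at least 11.8-fold higher in AAA_14 than in Sham. Slfn5, a schlafen family member, stood at 107 CPM in AAA_14 (141 UMIs), 8.14 CPM in AAA_7 (1 UMI) and 0 CPM in Sham (0 UMIs), at least 8.93-fold higher. Ifit3, a partner of Ifit1, stood at 67.3 CPM in AAA_14 (89 UMIs), 8.14 CPM in AAA_7 (1 UMI) and 0 CPM in Sham (0 UMIs), at least 5.63-fold higher. None of these 3 genes had a UMI in Sham, and the other libraries were apart as well, with AAA_14 over AAA_7 at 2.80 (1.25 to 6.17) for Ifit1, 3.13 (1.21 to 9.02) for Slfn5 and 2.47 (0.53 to 8.37) for Ifit3. Ifit3 and its near-identical neighbour Ifit3b (62, 0 and 0 UMIs in AAA_14, AAA_7 and Sham) may share reads.

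The promoter windows of Ifit1 and Ifit3 are shown because both genes had UMIs in AAA_14 and none in Sham, and both windows hold the core of the interferon-stimulated response element, 2 copies of GAAA with 2 bases of any kind between them, searched on both strands and found on the minus strand, so that the plus strand printed here shows its reverse complement. Capitals mark the matches. The sequences are from RefSeq for GRCm38.p6, plus strand, 5' to 3', and end before the first annotated transcript start. The Ifit1 window is chr19:34640639-34640870 and the Ifit3 window chr19:34583279-34583528.
Ifit1: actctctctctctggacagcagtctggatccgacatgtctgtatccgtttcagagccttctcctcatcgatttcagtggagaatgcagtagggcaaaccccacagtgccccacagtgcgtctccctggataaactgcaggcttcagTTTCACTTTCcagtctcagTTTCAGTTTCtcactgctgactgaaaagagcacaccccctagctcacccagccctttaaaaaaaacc
Ifit3: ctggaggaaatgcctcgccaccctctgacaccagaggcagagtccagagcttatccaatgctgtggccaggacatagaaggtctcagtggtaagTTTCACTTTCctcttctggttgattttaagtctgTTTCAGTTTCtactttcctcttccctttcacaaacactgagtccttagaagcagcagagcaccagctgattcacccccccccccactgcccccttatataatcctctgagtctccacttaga
Counted in the same way, the matches of Ifit1 begin 86 and 67 bases upstream and those of Ifit3 156 and 122 bases upstream. The motif occurs in 2.76% of all windows of the length used for Ifit1 and in 2.98% of those of the length used for Ifit3. Over windows of 250 bases before to 50 bases after the start, 10 of 19 genes of the list with a sequence held it (52.6%), against 3.99% of 27025 genes.

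Other members followed with higher levels. Ifitm1, a membrane protein that limits virus entry, stood at 476 CPM in AAA_14, 513 CPM in AAA_7 and 19.9 CPM in Sham (5 UMIs), a log2 ratio of 4.44 (3.35 to 6.21) of AAA_14 over Sham and 4.56 (3.39 to 6.36) of AAA_7 over Sham. Ifi27l2a, of the interferon-induced Ifi27 family, stood at 595 CPM in AAA_14, 269 CPM in AAA_7 and 75.6 CPM in Sham, 2.94 (2.32 to 3.72) for AAA_14 over Sham. Rsad2, viperin, stood at 170 CPM in AAA_14, 89.6 CPM in AAA_7 and 43.8 CPM in Sham, 1.90 (1.09 to 2.98) for AAA_14 over Sham. These 3 were higher in AAA_14 than in Sham beyond counting error, and Ifitm1 was as high in AAA_7 as in AAA_14. In both of these libraries Ifitm1 did not pass the filters for ranked genes described further below, which limit depth, the share of 1 cell and RNA of other cells. In AAA_14, Ifi27l2a stood at 1653 CPM in macrophages, 898 CPM in T cells and 628 CPM in B cells, above the granule-rich cells. The part of free RNA in its level was not tested. Smaller ratios of AAA_14 over Sham were those of Oasl2 (1.81, 0.97 to 2.96), Cmpk2 (1.49, 0.68 to 2.58), Slfn4 (1.18, 0.86 to 1.53) and Ifitm3 (0.85, 0.69 to 1.02). Slfn1 had 0.39 (-0.04 to 0.88), an interval that holds 0. Isg15, a ubiquitin-like modifier, and Bst2, tetherin, were higher in AAA_7, at 87.0 and 96.8 CPM in AAA_14, 179 and 204 CPM in AAA_7, and 19.9 and 3.98 CPM in Sham, but 92% of the Bst2 UMIs of AAA_7 came from 1 cell.

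The share of cells with a UMI followed the summed counts. Ifit1 was found in 43 granule-rich cells of AAA_14 (28.3%), 2 of AAA_7 (8%) and 0 of 46 in Sham, which by a floor of 3 cells allows a share of cells with a UMI of up to 6.52%, not a limit on cells that express the gene. B cells had Ifit1 in 5.92% of cells of AAA_14, 1.56% of AAA_7 and 0.621% of Sham, at median depths of 4774, 1991 and 2441 UMIs in the same order. Thinned to 1000 UMIs, 11.9% of the granule-rich cells of AAA_14, 4.35% of those of AAA_7 and 0% of those of Sham had Ifit1. Slfn5 was found in 27.6% of granule-rich cells and 21.2% of B cells of AAA_14, 4% and 4.98% in AAA_7, and 0% and 2.48% in Sham. Ifit3 was found in 15.8% of granule-rich cells and 8.80% of B cells of AAA_14, 4% and 0.935% in AAA_7, and 0% and 0.311% in Sham. Ifit1 thus stood furthest above the B cells of AAA_14, and Slfn5 was close to their share.

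The summed level of the list per cell had a median of 45.6 UMIs per 10000 in granule-rich cells of AAA_14, 27.7 in AAA_7 and 19.9 in Sham. In other neutrophils the medians were higher, at 151.5 in AAA_14, 78.9 in AAA_7 and 43.4 in Sham. Thinned to 1000 UMIs, granule-rich cells held a mean of 6.62 UMIs of the list in AAA_14, 4.17 in AAA_7 and 2.13 in Sham, and other neutrophils held 17.9 in AAA_14, 11.4 in AAA_7 and 5.75 in Sham. The difference of AAA_14 over Sham appeared in both ranges of the granule level, with 20 of 23 genes at least 2-fold higher (median 2.28) at 100 or more per 10000, where 13.3% of all genes were, and 17 of 24 (median 2.22) between 10 and 100, where 23.6% were. It appeared in other neutrophils too, where 22 of 24 members reached 2-fold in AAA_14 over Sham (median 2.54), with 23% of all genes, and 18 of 24 in AAA_7 over Sham (median 2.27), with 27.3% of all genes. Whether granule-rich cells and other neutrophils differ in this was not tested.

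**Figure D4:**
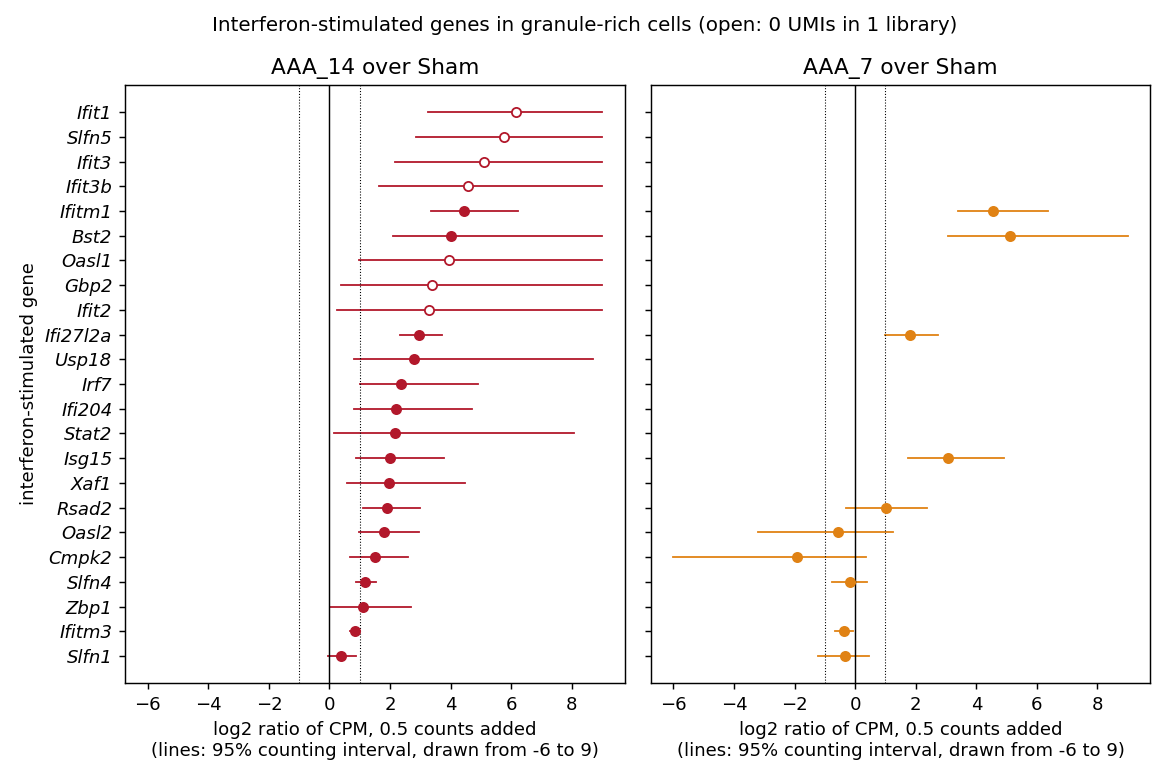
Log2 ratio of CPM over Sham of the measured interferon-stimulated genes, 1 list member not drawn, in granule-rich cells of AAA_14 (left) and AAA_7 (right), with 95% counting intervals that are cut off at -6 and 9 (open points had 0 UMIs in Sham) and dotted lines at 2-fold. In AAA_14 21 genes lie at or beyond the upper line, and in AAA_7 5 genes.

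RNA of some other cell types moved with the library as well. Of the macrophage markers, 4 of 7 measured genes reached 2-fold in granule-rich cells of AAA_14 over those of Sham, against 14.5% of all genes, and the per-cell sum of the 9 genes ran from 0 to 72.6 per 10000 in AAA_14, 0 to 47.3 in AAA_7 and 0 to 5.0 in Sham. C1qb had 34, 2 and 0 UMIs, C1qc 11, 1 and 0, Mrc1 8, 1 and 0, and Apoe 219, 13 and 2 UMIs in AAA_14, AAA_7 and Sham. Of the B cell markers, 3 of 6 reached 2-fold in AAA_14 over Sham, with a per-cell sum from 0 to 92.5 in AAA_14, 0 to 177 in AAA_7 and 0 to 13.3 in Sham. Their part in the interferon-stimulated difference was not tested. Macrophages of AAA_14 had Ifit1 at 207 CPM and Slfn5 at 318 CPM, above the 141 and 107 CPM of the granule-rich cells. Ly6c2, a marker of monocytes that young neutrophils also carry, stood at 1297 CPM in AAA_14, 1050 CPM in AAA_7 and 673 CPM in Sham, while Ccr2, which monocytes have, had 45 UMIs in AAA_14 and none in AAA_7 and Sham.

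Genes were also ranked among those that passed filters on depth and on RNA of other cells (in the library of higher level 30 UMIs or more, 50 CPM or more, no cell with over 20% of the UMIs, and no less than 0.1 of the highest CPM among B cells, T cells and macrophages there). Outside the interferon list, the highest such ratio of AAA_14 over Sham was that of Wfdc17, a whey acidic protein family member, at 379 CPM in AAA_14 (501 UMIs), 659 CPM in AAA_7 and 7.96 CPM in Sham (2 UMIs), a log2 ratio of 5.25 (3.71 to 8.62). Lars2, the mitochondrial leucyl-tRNA synthetase, stood at 148 CPM in AAA_14, 155 CPM in AAA_7 and 11.9 CPM in Sham (3 UMIs), 3.41 (2.06 to 5.92). It moved in the same way in B cells, found in 76.1% of those of AAA_14, 56.1% of AAA_7 and 4.35% of Sham. B cells and T cells of AAA_14 stood at 272 and 284 CPM, so the Lars2 difference is not particular to granule-rich cells. Fcnb, ficolin B, a lectin of immature neutrophils, stood at 65.0 CPM in AAA_14, 122 CPM in AAA_7 and 7.96 CPM in Sham (2 UMIs), 2.72 (1.13 to 6.098). All 3 were as high or higher in AAA_7 than in AAA_14, but none passed the filters there. In AAA_7 37.0% of the Wfdc17 UMIs and 46.7% of the Fcnb UMIs came from 1 cell. Fcnb was found in 3 cells of AAA_7 and Lars2 in 13. Ube2l6, the conjugating enzyme of Isg15 (3.28, 1.33 to 9.17), Ptk2b, a focal adhesion kinase relative (3.22, 1.27 to 9.12), and Pfkfb4, a regulator of glycolysis (2.73, 1.15 to 6.11), completed the 10 genes with Ifit1, Slfn5, Ifit3 and Ifi27l2a.

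Lower in AAA_14 than in Sham was Ppp1r10, a protein phosphatase 1 subunit, at 71.8 CPM in AAA_14, 24.4 CPM in AAA_7 and 271 CPM in Sham, -1.92 (-2.38 to -1.44). Hcar2, the receptor of hydroxybutyrate and niacin, stood at 79.4 CPM in AAA_14, 285 CPM in AAA_7 and 231 CPM in Sham, -1.55 (-2.02 to -1.05). Slc7a11, the cystine transporter, stood at 284 CPM in AAA_14, 1905 CPM in AAA_7 and 685 CPM in Sham, -1.27 (-1.53 to -0.999). Hcar2 and Slc7a11 were thus highest in AAA_7, and Ppp1r10 in Sham. Neat1, a nuclear long noncoding RNA, stood at 408 CPM in AAA_14, 822 CPM in AAA_7 and 912 CPM in Sham, -1.16 (-1.38 to -0.93). Arhgap15 (-1.25), Hook3 (-1.20), Nin (-1.19), Nabp1 (-1.12), Slc40a1, the iron exporter ferroportin (-1.08), and Fcho2 (-1.07) made up the rest of the 10 lowest among genes that passed the filters. Genes that did not pass them lay beyond these values in places, as Stfa1 did at -2.77, and Stfa2, a stefin with 149 UMIs in AAA_14, 39 in AAA_7 and none in Sham, did among the higher ones.

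The AAA_7 library differed from both others in cytokine and activation genes. Ccl3, a chemokine, stood at 172 CPM in AAA_14 (227 UMIs), 1278 CPM in AAA_7 (157 UMIs) and 7.96 CPM in Sham (2 UMIs), -2.90 (-3.20 to -2.59) for AAA_14 over AAA_7. Nlrp3, the inflammasome sensor, stood at 34.8 CPM in AAA_14, 383 CPM in AAA_7 and 19.9 CPM in Sham. Tnf, tumour necrosis factor, stood at 42.3 CPM in AAA_14, 358 CPM in AAA_7 and 47.8 CPM in Sham. For these 3 genes AAA_7 was the highest library by a log2 ratio over Sham of 7.01 (5.45 to 10.38) for Ccl3, 4.14 (2.94 to 5.95) for Nlrp3 and 2.86 (1.96 to 3.96) for Tnf. None of the 3 passed the filters given above for ranked genes in AAA_7, which limit depth, the share of 1 cell and RNA of other cells. Acod1, which makes itaconate, stood at 190 CPM in AAA_14, 1042 CPM in AAA_7 and 239 CPM in Sham, and Cxcl2, a chemokine that draws neutrophils, at 1747 CPM in AAA_14, 4119 CPM in AAA_7 and 1628 CPM in Sham. Osm, oncostatin M, went against the rest of the list, at 744 CPM in AAA_14, 97.7 CPM in AAA_7 and 609 CPM in Sham, -2.59 (-3.62 to -1.79) for AAA_7 over Sham. In other neutrophils the ratio of Osm in that pair was -2.89.

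Over the activation list, 9 of 14 measured genes were higher by 2-fold or more and 1 lower in AAA_7 compared with Sham (median 1.41), against 22.4% and 10.9% of all genes. In AAA_14 over AAA_7 2 of 18 were at least 2-fold higher and 13 at least 2-fold lower (median -2.02), against 15% and 19.2% of all genes. In AAA_14 over Sham 7 of 17 were at least 2-fold higher and 2 at least 2-fold lower (median 0.28), against 14.5% and 7.88% of all genes, but with genes of 0 UMIs in Sham set at their bound 4 were higher and the median was 0.11, and it was -0.39 in cells without a UMI of the 12 marker genes. Per cell, the list summed to a median of 21.1 UMIs per 10000 in AAA_14, 132 in AAA_7 and 19.5 in Sham. The difference of AAA_7 over Sham appeared in both ranges of the granule level, with 9 of 12 genes at least 2-fold higher (median 2.09) at 100 or more per 10000, where 21.3% of all genes were, and 7 of 12 (median 1.24) between 10 and 100, where 25.7% were. The difference appeared in other neutrophils too, where 14 of 19 were at least 2-fold higher and 1 lower in AAA_7 over Sham (median 2.07), against 27.3% and 14.9% of all genes. In AAA_14 over AAA_7 1 of 19 was higher and 15 lower there (median -1.69), against 15.4% and 11.8%. Whether the 2 cell classes differ in this was not tested. The comparisons share the Sham or the AAA_7 cells, and AAA_7 rests on 25 granule-rich cells.

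Ccl3, Nlrp3, Tnf, Wfdc17, Lars2 and Ifitm1 did not pass the same filters in AAA_7. Among genes that did, those of highest ratio in AAA_7 over Sham were Slc15a3, an endolysosomal peptide transporter, at 59.0 CPM in AAA_14, 261 CPM in AAA_7 and 23.9 CPM in Sham (3.35, 2.17 to 5.00), and Cd14, the lipopolysaccharide co-receptor, at 384 CPM in AAA_14, 1457 CPM in AAA_7 and 143 CPM in Sham (3.33, 2.82 to 3.91). Smox (2.89), Marcksl1 (2.76), the kinase Pim1 (2.50), Sgms2 (2.44), Tab2 (2.44), the lectin receptor Clec4d (2.41), Tnfaip2 (2.20) and Il1r2, the decoy receptor of interleukin 1 (2.19), followed. Lowest in AAA_7 over Sham was Fos, an immediate early transcription factor, at 1081 CPM in AAA_14, 97.7 CPM in AAA_7 and 2070 CPM in Sham, -4.35 (-5.37 to -3.59). Jun, its partner, stood at 482 CPM in AAA_14, 179 CPM in AAA_7 and 800 CPM in Sham, -2.13 (-2.87 to -1.52). In other neutrophils the ratios of Fos and Jun in that pair were -3.79 and -0.71. Both are among the genes that tissue dissociation is known to induce, and of the dissociation and stress list 2 of 15 were higher by 2-fold or more and 5 lower in AAA_7 compared with Sham (median -0.60, with 22.4% and 10.9% of all genes), against 1 higher and 1 lower of 16 in AAA_14 over Sham (median 0.09, with 14.5% and 7.88%). Its part in the other differences was not tested. Ap1s2 (-3.36, 1 UMI in AAA_7), Ppp1r10 (-3.26, 3 UMIs in AAA_7), Evi2 (-2.75), Osm (-2.59), Ncoa4 (-2.43), Trem3 (-2.34), Zmpste24 (-2.21) and Ripor2 (-2.21) were the others of the 10 lowest past the filters, with 12 UMIs or fewer each in AAA_7.

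AAA_14 over AAA_7 repeated these contrasts from the other side. Fos (3.41, 2.66 to 4.42) and Osm (2.87, 2.12 to 3.89) were higher in AAA_14, beside the interferon-stimulated Cmpk2 (3.40, 1.48 to 9.29), Slfn5, Ifit1 and Ifit3. Atp11a, a phospholipid flippase, had 70 UMIs in AAA_14 and 0 UMIs in AAA_7, at least 2.17-fold higher. Ap1s2 (2.80) and Cd300lb (2.62) had 1 UMI each in AAA_7. Lower in AAA_14 were Marcksl1, a cytoskeletal protein, at 88.5 CPM in AAA_14 and 928 CPM in AAA_7 (-3.39, -3.78 to -3.01), Acod1 (-2.46, -2.77 to -2.14), and Nfkbia, the inhibitor of NF-kappa B, at 378 CPM in AAA_14 and 1807 CPM in AAA_7 (-2.26, -2.49 to -2.02). Tnfaip2 (-2.22), Slc15a3 (-2.16), Smox (-2.12), Clec4d (-2.08), N4bp1 (-2.08), Atp2b1 (-1.93) and Cd14 (-1.93) followed.

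**Figure D5:**
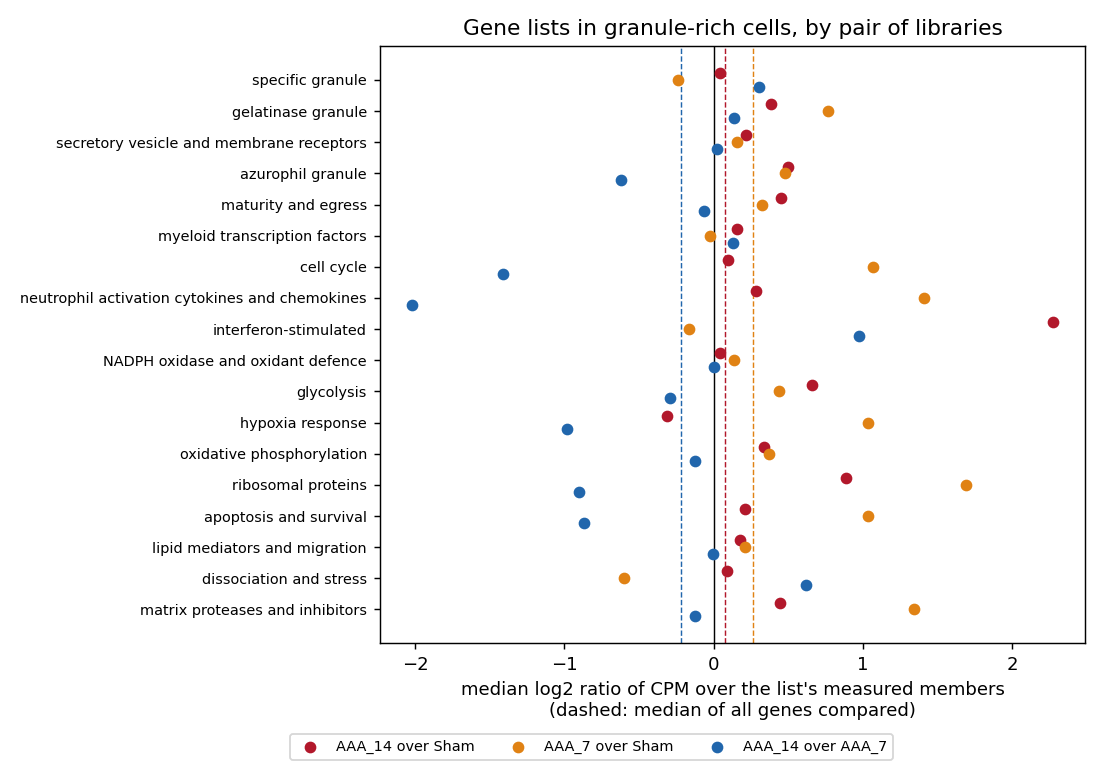
Median log2 ratio over the measured genes of each list of neutrophil and general genes in granule-rich cells, markers of other cell types not drawn, with 1 point for each of the 3 pairs of libraries and dashed lines at the median of all genes. Of the lists drawn, interferon-stimulated genes lead in AAA_14 over Sham at 2.28, and ribosomal proteins and activation genes in AAA_7 over Sham at 1.69 and 1.41.

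Ribosomal protein genes were higher in AAA_7 when summed over all granule-rich cells, but against AAA_14 not in the lower range of the granule level. In AAA_7 over Sham 14 of 16 were at least 2-fold higher (median 1.69), in AAA_14 over Sham 5 of 16 (median 0.89), and in AAA_14 over AAA_7 5 of 16 were at least 2-fold lower (median -0.90). Of all genes, 22.4% were at least 2-fold higher in AAA_7 over Sham and 14.5% in AAA_14 over Sham, and 19.2% at least 2-fold lower in AAA_14 over AAA_7. In cells without a UMI of the 12 marker genes the median was 0.40 for AAA_7 over Sham, 0.12 for AAA_14 over Sham and -0.02 for AAA_14 over AAA_7. In AAA_7 over Sham the median was 2.10 at 100 or more per 10000 and 0.32 between 10 and 100. In other neutrophils the medians lay between -0.06 and 0.05 in the 3 pairs of libraries.

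Most other lists of neutrophil genes had medians nearer to 0 in AAA_14 over Sham, and the counts below stand against 14.5% of all genes higher and 7.88% lower. Gelatinase granule genes were at least 2-fold higher in 2 of 9 (median 0.38), with Mmp9 at 2489 CPM in AAA_14, 1384 CPM in AAA_7 and 1823 CPM in Sham. Secretory vesicle and receptor genes were at least 2-fold higher in 2 of 11 (0.22), maturity and egress genes in 4 of 16 (0.45), glycolysis genes in 4 of 15 (0.66) and oxidative phosphorylation genes in 1 of 16 (0.34). NADPH oxidase and oxidant defence genes had 0 of 14 higher and 1 lower (0.04), and lipid mediator and migration genes 0 of 15 higher or lower (0.18). Cell cycle genes had 2 of 17 higher and 1 lower (0.09), whereas in AAA_7 over Sham 7 of 13 were at least 2-fold higher (1.06, against 22.4% of all genes), with 33.4% of their AAA_7 UMIs in 1 cell and a median of -2.76 in cells without a UMI of the 12 marker genes. Of matrix proteases and inhibitors, 6 of 15 were at least 2-fold higher and 1 lower (0.45), and this group holds stefins whose near-identical copies may share reads. Several lists of other cell types had higher medians of AAA_14 over Sham on few genes, at 4.11 over 3 measured monocyte markers (2 of them with 0 UMIs in Sham), 2.17 over 3 dendritic cell markers and 6.36 over 5 erythroid genes, with 97.7% of the erythroid UMIs in AAA_14 from 1 cell. The T and NK cell list ran the other way, with 0 of 3 measured genes at least 2-fold higher, 1 lower and a median of -0.81.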

How the data were processed

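Single-cell RNA was measured in 3 libraries, each the only library of its group, grouped by sample title. The values the authors deposited are raw UMI counts for each gene in each barcode, which per the file headers came from Cell Ranger 6.1.2. Seurat and mm10 also appear in the submitters' processing notes, with no role given. Reference annotation, read filters and doublet removal upstream: not given in the sources used here.

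From these counts, cells were chosen by the stated rule and summed per library into CPM. A ratio is the log2 of CPM with 0.5 counts added, over genes that reached 10 UMIs in the pair of libraries, with an exact conditional binomial 95% interval. A fold of 2 in either direction set the counts of genes. No test was run, since each group has 1 library. A fold against 0 UMIs used a floor of 3 counts. Cells were thinned to 1000 UMIs to compare shares, which left out 1, 2 and 0 granule-rich cells of AAA_14, AAA_7 and Sham. B cells, T cells and macrophages, used to read free RNA, were set apart by the same marker genes. Scrublet in scanpy 1.11.5 called 0, 0 and 2 doublets in AAA_14, AAA_7 and Sham, which was taken as a failed call, so doublets were left in and the highest-scoring cells were removed only as an alternative.

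The members and gene lists were chosen with earlier results of these data known. Named genes were list members, the 10 highest and 10 lowest ratios per pair of libraries among genes that reached 30 UMIs and 50 CPM in the higher library, stood at no less than 0.1 of the highest CPM among B cells, T cells and macrophages there and had at most 20% of UMIs in 1 cell, without rule, mitochondrial, ribosomal, haemoglobin, unnamed, immunoglobulin and sex-linked genes, and the 15 highest median ratios over other neutrophils among genes with at least 100 CPM. In the files, 358 of 360 list genes were found. Some genes are counted in their lists but not reported by name here. Promoters were matched by symbol to a RefSeq table for GRCm38.p6, and windows were ended before the first GENCODE vM21 transcript start. Ratios were tested on simulated data. The computing used Python 3.11.15, numpy 2.4.6, scipy 1.17.1, pandas 2.3.3, matplotlib 3.10.9, R 4.3.3 and edgeR 4.0.16, the last for TMM factors only. Alternatives were other limits on mitochondrial UMIs, genes and granule level, more excluded genes, doublet candidates removed, other size factors, thinning, other added counts and other count minimums. Further alternatives chosen after seeing the data were at most 1 UMI of each excluded gene, a granule threshold of 100 and leaving out cells rich in haemoglobin.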

Additional observations from a re-analysis of the deposited data

Results flagged for a closer look

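Of 887 combinations of a reported gene and a pair of libraries looked at, 3 had opposite directions in granule-rich cells and in other neutrophils, each at least 2-fold with a counting interval that does not hold 0. The difference between the cell classes was not tested in any of them. Stfa1, a stefin that inhibits cysteine proteases, had a log2 ratio of AAA_14 over Sham of -2.77 in granule-rich cells (67 UMIs in AAA_14 and 87 in Sham) and 1.62 in other neutrophils (224 UMIs in AAA_14 and 5 in Sham). In granule-rich cells without a UMI of the 12 marker genes of other cells, Stfa1 stood at 0.84. Stfa3, another stefin, had 3.11 in granule-rich cells (113 UMIs in AAA_14 and 2 in Sham, interval 1.54 to 6.49) and -2.70 in other neutrophils (25 UMIs in AAA_14 and 12 in Sham). Stfa1 and Stfa3 have near-identical copies, so reads may be split between them and each value is uncertain. Mki67, a protein of dividing cells, had a ratio of AAA_7 over Sham of 2.14 in granule-rich cells (33 UMIs in AAA_7 and 15 in Sham) and -1.72 in other neutrophils (17 UMIs in AAA_7 and 6 in Sham). Of the Mki67 UMIs in granule-rich cells of AAA_7, 54.5% came from 1 cell, and in cells without a UMI of the 12 marker genes the ratio was -3.94.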

How the results depend on the processing

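No paired analysis was possible because each group is 1 library and the labels give no shared replicate numbers, so no test was run. Of 79 named ratios under 19 alternatives, direction was kept in 1497 of 1501 values. The exceptions arose in cells without a UMI of 12 excluded marker genes (43 cells of AAA_14, 12 of AAA_7, 22 of Sham): Ceacam10 0.053 and Mki67 -3.94 in AAA_7 over Sham, Olfm4 -0.13 and Stfa1 0.84 in AAA_14 over Sham. There the cell cycle median was 0.71 in AAA_14 over AAA_7 and -2.76 in AAA_7 over Sham (-0.0041 as a mean over cells, -0.52 thinned), and oxidative phosphorylation in AAA_7 over Sham was -0.085. The shift of all genes moved with scaling, in AAA_7 over Sham 0.26 as reported, -0.10 with median-of-ratios factors and -0.05 with TMM factors, and in AAA_14 over AAA_7 0.06 and -0.02 against -0.22.

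Genes at least 2-fold higher, then lower, were 904 and 492 in AAA_14 over Sham, 679 and 331 in AAA_7 over Sham, and 920 and 1175 in AAA_14 over AAA_7. In AAA_14 over Sham the higher ones were 442 with 12 excluded genes, 271 thinned, 93 with 5 counts added, 422 at 30 UMIs and 1514 at 1 UMI, and the lower ones 786 as a mean over cells, 209 thinned, 1659 with 5 counts added, 150 at 30 UMIs and 1804 at 1 UMI. In AAA_7 over Sham the higher ones were 295 with 12 excluded genes, 402 with median-of-ratios factors, 428 with TMM, 221 thinned, 243 at 30 UMIs and 3058 at 1 UMI, and the lower ones 540, 505, 512 as a mean over cells, 82 thinned, 53 with 5 counts added, 94 at 30 UMIs and 1384 at 1 UMI. In AAA_14 over AAA_7 the higher ones were 519 with 12 excluded genes, 244 thinned, 39 with 5 counts added and 378 at 30 UMIs, and the lower ones 449, 783 with median-of-ratios factors, 364 thinned, 3814 with 5 counts added, 479 at 30 UMIs and 4744 at 1 UMI. Counts of genes past a fold thus depend on the processing.

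Of kept cells, granule-rich ones were 8.28% of AAA_14 and 30.9% of Sham at a mitochondrial limit of 5%, and 1.94% and 1.54% at 20%. At granule thresholds of 50 and 100 they were 2.21% and 2.01% of AAA_14 and 0.372% and 0.341% of AAA_7. With 12 excluded genes they were 0.813% of AAA_14, 0.372% of AAA_7 and 1.78% of Sham, and with up to 1 UMI of each excluded gene 3.75% of AAA_14. Of neutrophils, they were 46.6% and 23.8% of AAA_14 at 5% and 20% mitochondrial UMIs, 21.6% of AAA_14 and 2.26% of AAA_7 at a threshold of 50, and 19.6% of AAA_14, 2.08% of AAA_7 and 37.4% of Sham at 100.

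With 5 counts added, the interferon-stimulated median was 1.09 in AAA_14 over Sham and 0.21 in AAA_14 over AAA_7, and the activation median -0.22 in AAA_14 over Sham (-0.39 with 12 excluded genes). The ribosomal median in AAA_14 over Sham was 0.12 with 12 excluded genes, 0.52 without doublet candidates and 0.61 as a mean over cells. In AAA_7 over Sham it was 1.98 and 2.10 at thresholds of 50 and 100, 0.40 with 12 excluded genes, 1.33 with median-of-ratios factors, 1.22 as a mean over cells and 0.84 thinned. In AAA_14 over AAA_7 it was -1.27 and -1.36 at those thresholds, -0.020 with 12 excluded genes, -1.24 without doublet candidates and -0.25 thinned. The cause of these shifts was not tested. Depth limits AAA_7 most, where 3 UMIs are 24.4 CPM, against 2.27 CPM in AAA_14 and 11.9 CPM in Sham.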
